A study of Mus musculus with 64 samples.

Results

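Sites where β-catenin peaks ranked high in naive embryonic stem cells (naive ESC) and in hardly any other library were examined across 5 ChIP-seq targets. They were selected from the β-catenin peaks themselves. Every β-catenin list was limited to its peaks of highest fold enrichment, as many as the shortest of the 12 lists held, peaks sharing at least 1 bp were merged across libraries, and a merged site was taken when it had a peak in 3 of 3 naive ESC lists and in at most 1 of the 9 other lists. This gave 900 of 12607 sites, or 7.14%. Of the 900 sites, 712 had no peak in any of the 9 other limited lists, and 188 had a peak in 1 of them. This was a SOX2-ON list for 136 sites, a SOX2-OFF list for 35 and a CEpiLC list for 17. Among all deposited peaks, only 69 of the 900 (7.67%) had no β-catenin peak in any of the 9 other libraries, so most sites had weaker peaks elsewhere.

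ChIP-seq lists were available for 5 target proteins in 4 cell conditions of the mouse HM1 line, a 129-strain embryonic stem cell line that served as wild type (WT), with 3 biological replicates in each group and a time point of 72 h given for all. Naive ESC were WT cells returned to naive pluripotency in 2i, in which the MEK inhibitor PD0325901 is combined with the GSK3 inhibitor CHIR99021. CEpiLC, caudal epiblast-like cells, were WT cells differentiated with FGF and the porcupine inhibitor LGK974, to which CHIR99021 was then added. SOX2-ON and SOX2-OFF cells were differentiated under the same FGF, LGK974 and CHIR99021 regime from the Sox2-/- SOX2-TetON line. That line lacks endogenous SOX2 and carries a doxycycline-driven Sox2 transgene at the Hprt locus, and doxycycline at 1 µg/ml was either maintained (SOX2-ON) or withdrawn (SOX2-OFF). All 4 groups had thus been exposed to a GSK3 inhibitor. Naive ESC differed from CEpiLC in medium and differentiation along with SOX2, and from SOX2-ON in medium, differentiation and cell line, and these cannot be told apart here. RNA was not part of these files, so the cell types could not be checked against marker genes.

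β-catenin does not bind DNA. When WNT signals, or when GSK3 is inhibited, it escapes degradation, enters the nucleus and binds the TCF and LEF proteins, which recognise a short word on DNA. TCF7L1 (TCF3 in the labels) is the main such protein of embryonic stem cells and acts largely as a repressor that β-catenin relieves, whereas LEF1 is better known as an activator and TCF7L2 (TCF4 in the labels) can do both. SOX2, which binds with OCT4, is part of the core pluripotency network, and naive pluripotency is maintained by factors such as ESRRB, KLF2, KLF4 and TFCP2L1.

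Sequences are shown for sites close to naive pluripotency genes with peaks of SOX2 and TCF7L1 in all 3 naive ESC lists, since these are the places where the partners of β-catenin can be read beside the DNA. Of the 8 sites near such genes 4 met this condition. Each window reaches 100 bases to either side of the median β-catenin summit, on the forward strand of GRCm38 (the mm10 coordinates of the deposited peaks, in the C57BL/6J reference and not the 129 strain of the cells). Capitals mark matches on either strand to the TCF word (CTTTGAA or CTTTGAT) and to the SOX word (CATTGT or CTTTGT).
Klf2 site, chr8:72334354-72334554: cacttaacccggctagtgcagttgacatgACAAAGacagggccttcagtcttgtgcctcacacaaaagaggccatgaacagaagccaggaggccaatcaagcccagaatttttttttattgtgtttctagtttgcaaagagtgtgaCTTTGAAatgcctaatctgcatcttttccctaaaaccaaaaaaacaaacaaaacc
Tet2 site, chr3:133524749-133524949: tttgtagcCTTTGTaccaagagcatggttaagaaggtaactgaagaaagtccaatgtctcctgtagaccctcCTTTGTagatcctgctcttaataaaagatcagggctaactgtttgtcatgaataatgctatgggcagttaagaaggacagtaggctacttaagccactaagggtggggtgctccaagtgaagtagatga
Prdm14 site, chr1:13085024-13085224: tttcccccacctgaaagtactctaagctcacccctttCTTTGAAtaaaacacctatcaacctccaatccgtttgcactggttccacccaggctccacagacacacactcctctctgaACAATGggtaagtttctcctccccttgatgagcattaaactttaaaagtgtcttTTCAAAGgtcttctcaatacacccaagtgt
Dppa5a site, chr9:78375100-78375300: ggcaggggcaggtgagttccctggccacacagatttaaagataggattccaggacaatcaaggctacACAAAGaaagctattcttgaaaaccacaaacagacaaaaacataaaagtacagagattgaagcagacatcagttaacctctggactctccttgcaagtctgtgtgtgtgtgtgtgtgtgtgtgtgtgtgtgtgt

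The Klf2 window lay 15.4 kb from the start of Klf2, past its end, and held 1 TCF and 1 SOX word. KLF2 is a Krüppel-like factor of the naive network. The Prdm14 window lay 42.0 kb from the start of Prdm14, which encodes a repressor of FGF signalling and of DNA methylation, and held 2 TCF words and 1 SOX word. The windows in an intron of Tet2, a DNA hydroxymethylase, and 7.02 kb upstream of Dppa5a, a pluripotency-associated RNA-binding protein, held no TCF word, with 2 and 1 SOX words. None of the 4 windows held the ESRRB word AAGGTCA.

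The 900 sites were mostly distal. Of their summits, 454 (50.4%) were intergenic, 396 (44.0%) intronic, 21 (2.33%) exonic and 29 (3.22%) within 1 kb of the start of a protein-coding transcript in the GENCODE annotation. Over all 12607 sites, 6.25% of summits were within 1 kb of a start, and over the 408 sites found by the mirrored rule in CEpiLC lists (CEpiLC-specific sites) it was 13.5%. The median distance to the nearest start was 23.7 kb for naive-specific sites, 33.7 kb over all sites and 25.8 kb for CEpiLC-specific sites. The sites were 312 to 2116 bp wide, with a median of 717 bp, and the 3 naive summits lay a median of 42 bp apart at their widest. They were spread over every autosome and X, with 93 on chromosome 11 (10.3%, against 6.52% of all sites) and 12 on X (1.33%, against 3.16%). Another naive-specific site lay within 50 kb for 125 of them (13.9%).

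Naive-specific sites were not the strongest β-catenin peaks of naive ESC. Of the 100 highest peaks, between 7.0% and 11% by replicate lay at naive-specific sites, while 45.0% to 46.0% lay at the 332 sites kept in all 12 lists. Between ranks 501 and 2000 the share at naive-specific sites was 31.2% to 38.6%. The median over sites of the median naive fold was 23.8, with a range of 15.1 to 104, against 38.2 for the kept sites. These values chose the sites and are a description. At the edge of the selection the lowest fold of a ranked naive list was 18, 10.9 and 15.1 in replicates 1 to 3. The site at chr13:109073378-109073850, with folds of 20.7, 11.4 and 15.1, was just inside, while the site at chr2:34936407-34937131, with 19.2, 14 and 15.1, was just outside. A further 156 sites with peaks in 3 of 3 naive lists were left out for having peaks in 2 of the 9 other lists.

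When all deposited peaks were read, without the limit on their number, β-catenin peaks at naive-specific sites were close to the share of all β-catenin sites in SOX2-ON and below it in CEpiLC and SOX2-OFF. By replicate, 67%, 47.6% and 73.3% of the 900 sites had a β-catenin peak in SOX2-ON, 21.7%, 11.8% and 7.33% in CEpiLC and 44.4%, 1.44% and 31.9% in SOX2-OFF. Over all 12607 sites the shares were 71.5%, 54.2% and 73.5% in SOX2-ON, 55.5%, 47.9% and 41.1% in CEpiLC and 65.2%, 26.5% and 58.7% in SOX2-OFF. The second SOX2-OFF list was the shortest of all, and the other two held 32581 and 415244 peaks. CEpiLC lists held 10930 to 20453 peaks and SOX2-ON lists 39154 to 461476, so list length moves with these shares and its part in them was not tested. Where peaks were present they were low, with a median fold of 5.30 to 5.79 in CEpiLC, 5.91 to 7.09 in SOX2-ON and 5.27 to 5.95 in SOX2-OFF, against 27.5, 16.5 and 24.9 in naive ESC. No β-catenin peak was in any CEpiLC list at 669 of the 900 sites (74.3%, against 41.2% of all sites). A peak was in 3 of 3 SOX2-ON lists at 336 (37.3%, against 47.7%), and 69 had none in any of the 9 lists (7.67%, against 3.49%). Since the rule limited these lists, no test was made.

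The 12 sites of highest naive β-catenin fold were led by a site in an intron of Wdr62, whose nearest start was that of Thap8 at 13.9 kb (chr7:30265605-30266511). Its β-catenin folds were 105, 63.3 and 104 in naive ESC, 12.1, 7.09 and 16.2 in SOX2-ON and 4.0 in 1 SOX2-OFF library, with no peak in CEpiLC. The naive folds were all well above those of SOX2-ON. TCF7L1 folds at the same site were 132, 121 and 272 in naive ESC, 4.67, 14.2 and 28.0 in SOX2-ON and 5.46, 10.8 and 5.49 in SOX2-OFF, and no CEpiLC list had a TCF7L1 peak there. The next sites lay in introns of Fancm, a DNA repair helicase (median fold 96.4), Ptdss1 (90.9) and Sufu, an inhibitor of Hedgehog signalling (90.8), and 7.57 kb from the start of Irf2bpl (87.7). An intron of Ubxn2a (83.2), an intron of Gas2l3 (76.5), the promoter of the centrosomal gene Nin at 0.565 kb (74.9), a site 11.5 kb from the start of the homeobox gene Msx2 (72.3), and introns of Mfn1 (70.7), Sh3pxd2a (69.0) and Glt1d1 (61.7) completed the 12. All 12 had TCF7L1 peaks in 3 of 3 naive ESC lists of equal length, and 11 of them had SOX2 peaks in 3 of 3, the site in Gas2l3 having SOX2 in 1.

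**Figure D1:**
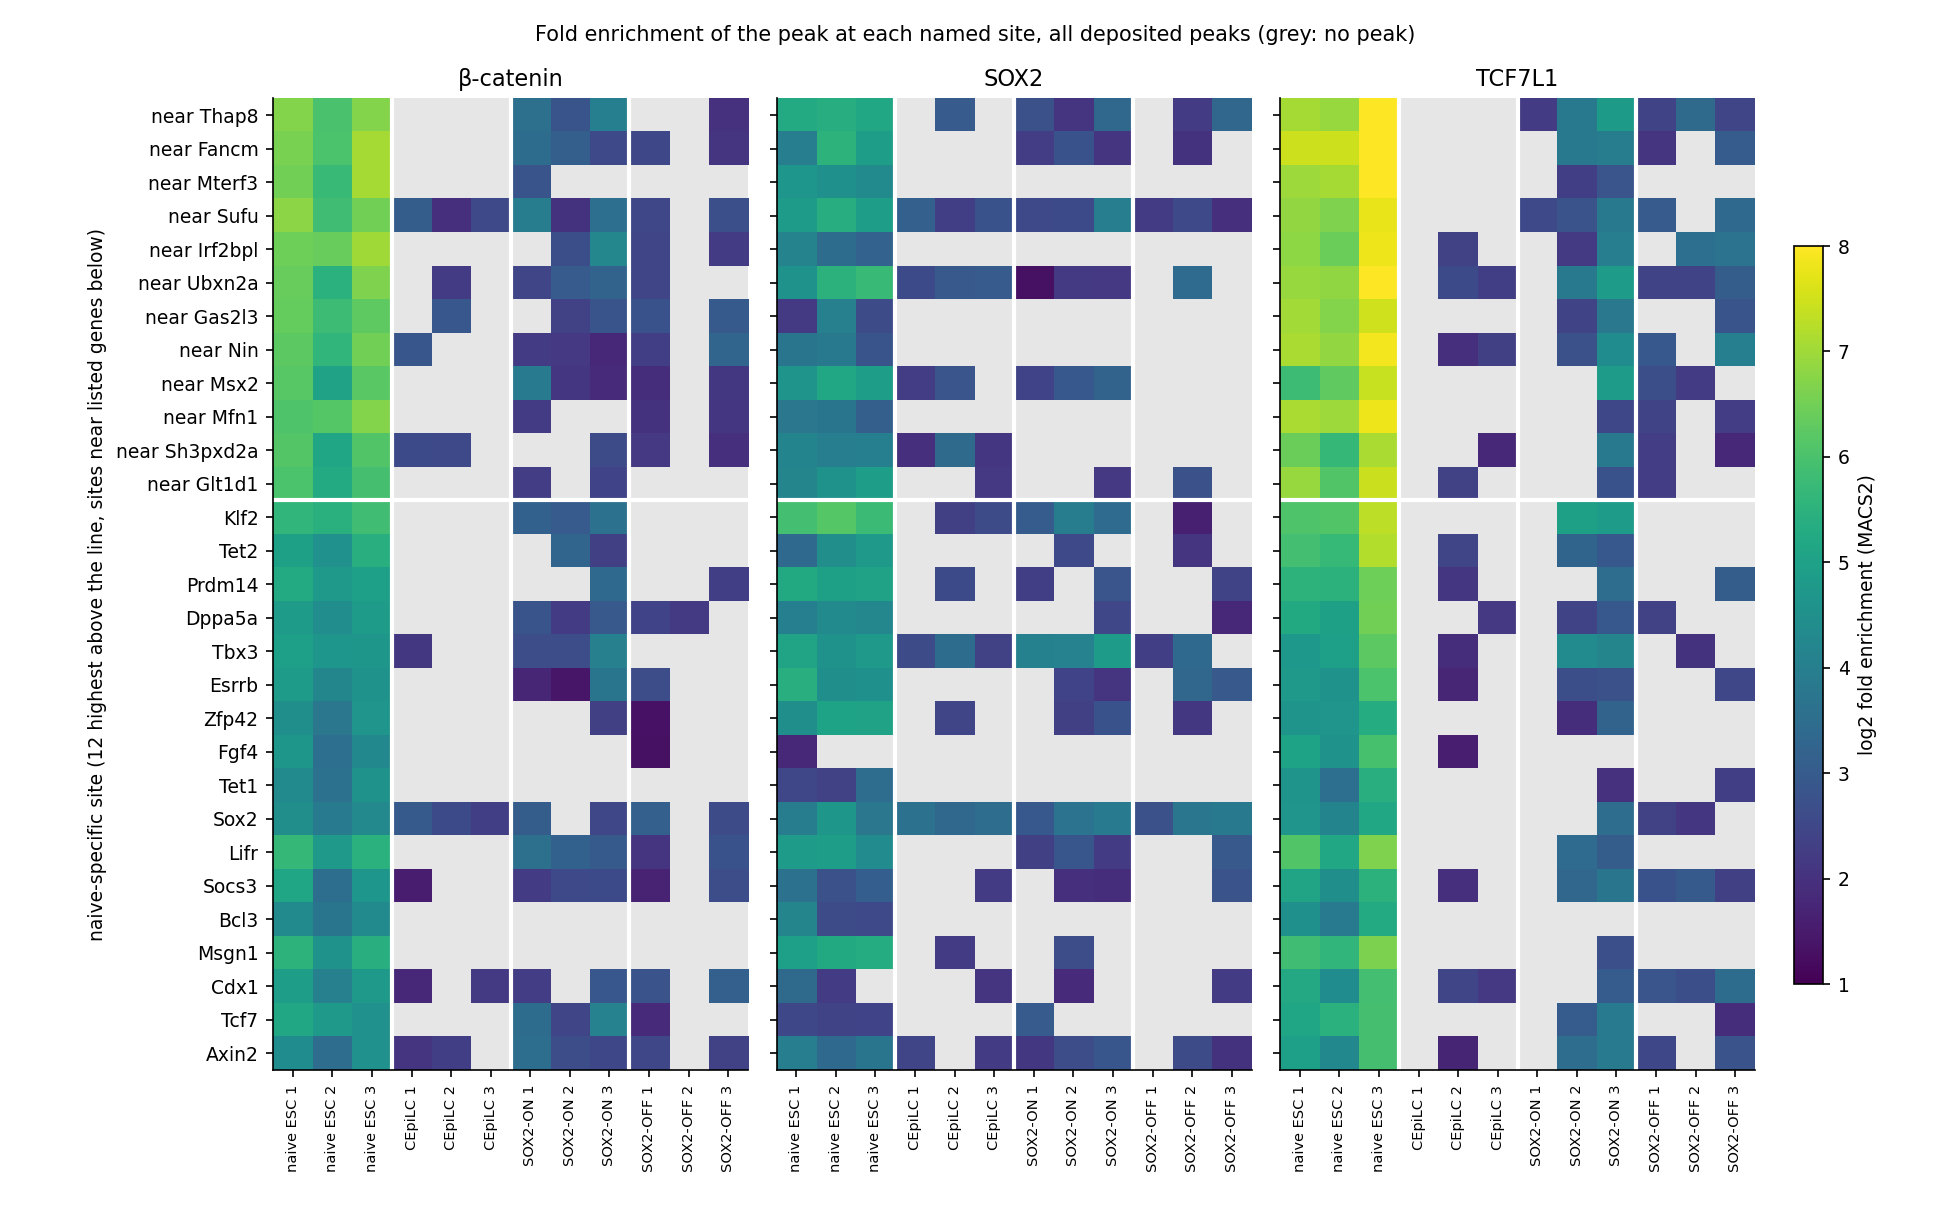
Fold enrichment (log2, colour) of the deposited peak of β-catenin, SOX2 and TCF7L1 at named naive-specific sites (rows) in each of the 12 libraries (columns), grey where a list had no peak. The 12 sites above the line are those of highest naive β-catenin fold, named by the nearest start, and those below lie within 50 kb of a listed gene. The 3 naive ESC columns were highest for TCF7L1 in every row, and β-catenin at the Klf2 site reached 49.2, 43.3 and 58.2 (linear fold) there against at most 12.5 in SOX2-ON.

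Several genes of the naive pluripotency network had a naive-specific site nearby. Of the 21 genes of the naive pluripotency list, 8 (38.1%) had a naive-specific site within 50 kb of the gene body, against 1651 of 21951 protein-coding genes (7.52%). The 8 were Klf2, Tet2, Prdm14, Dppa5a, Tbx3, Esrrb, Zfp42 and Fgf4. CEpiLC-specific sites lay near 3 of the 21 (14.3%, against 3.06% of all protein-coding genes), and kept sites near 1. Genes of the LIF and STAT3 pathway had a naive-specific site in 3 of 10 cases (Lifr, Socs3 and Bcl3) and core pluripotency genes in 2 of 10 (Tet1 and Sox2). None of the 12 primed epiblast genes and none of the 12 primitive endoderm and trophoblast genes did. For caudal epiblast and mesoderm genes the counts were 2 of 24 (Msgn1 and Cdx1, 8.33%) near a naive-specific site and 10 of 24 (41.7%) near a CEpiLC-specific site. WNT feedback genes were near a naive-specific site in 2 of 15 cases (Tcf7 and Axin2), and near a kept site in 5 of 15. Of the genes of the TCF, LEF and β-catenin proteins themselves, 1 of 5 (Tcf7) was. The lists were chosen with earlier results of these data known, and nearness does not show that a gene is regulated.

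Individual loci differed in what remained outside naive ESC. At the Klf2 site (chr8:72333339-72334727), SOX2 folds were 60.1, 71.9 and 54.2 in naive ESC, 8.15, 15.7 and 11 in SOX2-ON, 5.01 and 6.01 in 2 CEpiLC libraries and 3.06 in 1 SOX2-OFF library. β-catenin at this site had folds of 9.11, 7.99 and 12.5 in SOX2-ON and no peak in any CEpiLC or SOX2-OFF list. The naive ESC values of SOX2 lay above all SOX2-ON values, and those of SOX2-ON above the 3 other values of SOX2.

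At the site in an intron of Tbx3, a T-box factor of naive cells (chr5:119679523-119680364), β-catenin folds were 30.7, 25.8 and 26 in naive ESC, 6.34, 6.29 and 16.6 in SOX2-ON and 4.40 in 1 CEpiLC library. SOX2 stayed high in SOX2-ON there, at 16.9, 17.2 and 28.9 against 34.1, 23.7 and 27.4 in naive ESC, so that the SOX2 values of naive ESC and SOX2-ON overlapped. At the site in an intron of Esrrb (chr12:86501482-86502701), β-catenin folds were 28.9, 18.7 and 24.2 in naive ESC, 3.39, 2.66 and 13.2 in SOX2-ON and 6.35 in 1 SOX2-OFF library. SOX2 folds at the Esrrb site were 42.7, 22.3 and 22.8 in naive ESC and at most 9.95 elsewhere.

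The site upstream of Lifr, a receptor of LIF (chr15:7081802-7082534), had β-catenin folds of 50.8, 27.5 and 44.0 in naive ESC, 11.9, 8.95 and 7.83 in SOX2-ON and 4.25 and 6.77 in 2 SOX2-OFF libraries, with no peak in CEpiLC. Upstream of Socs3, a feedback inhibitor of LIF signalling (chr11:117972332-117973252), they were 35.3, 11.5 and 25.4 in naive ESC, 4.75, 5.88 and 5.97 in SOX2-ON, 3.27 and 6.3 in 2 SOX2-OFF libraries and 2.97 in 1 CEpiLC library. The site past the end of Fgf4 (chr7:144878078-144878640) had no SOX2 peak in any of the 3 naive lists of equal length (and 1 of fold 3.45 among all deposited naive peaks) but TCF7L1 peaks in all 3, with TCF7L1 folds of 33.3, 24.1 and 61.9. The site past the end of Sox2 (chr3:34668274-34668924) was the reverse, with SOX2 peaks in 3 of 3 lists of every condition and TCF7L1 in 0 of 12 lists at equal length, although the full naive lists had TCF7L1 there at folds of 24.9, 17.7 and 37.0. Msgn1, a mesoderm gene, had a naive-specific site 7.65 kb upstream with β-catenin folds of 46.4, 23.7 and 42.4 and no β-catenin peak in any of the 9 other lists.

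The other 4 targets had not been used to choose the sites, so their occupancy was compared over libraries. The choice still bore on them. The rule took sites with β-catenin in naive ESC and in hardly any other limited list. This favours naive ESC for any target that lies with β-catenin. The tests of high against low SOX2 therefore cannot separate SOX2 level from the choice of sites. Each target's lists were first made equally long (its shortest list, or 20000 peaks if that was less), ranked by the deposited −log10 p-value, because lists of 1 target differed in length many times over. The value tested was the percentage of the 900 sites with a peak in each library. The shares over all 12607 β-catenin sites, which include the 900, are given as background. These also hold the β-catenin peaks of the other conditions, most of which the rule leaves out. A share below background outside naive ESC is thus favoured by the choice of sites.

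SOX2 occupied 69.3%, 91.8% and 86.8% of naive-specific sites in naive ESC replicates. The CEpiLC libraries were at 22.7%, 20.3% and 16.3%, those of SOX2-ON at 27.1%, 30.4% and 32.2%, and those of SOX2-OFF at 10.1%, 13.9% and 14.2%. The naive ESC values stood apart from all others, and SOX2-ON lay above SOX2-OFF without overlap. Over all β-catenin sites the mean was 37.6% in naive ESC, 37.7% in both CEpiLC and SOX2-ON, and 29.1% in SOX2-OFF. In the same order, the means at naive-specific sites were 82.6% ± 11.8 (SD, n = 3), 19.8% ± 3.20, 29.9% ± 2.59 and 12.7% ± 2.28. Conditions of high SOX2 (naive ESC and SOX2-ON) exceeded those of low SOX2 within their cell lines by a mean of 40.0 points (exact permutation within cell lines, two-sided, p = 0.005, the smallest possible over 400 assignments, adjusted p = 0.02 over 4 targets). The difference was 62.9 points between naive ESC and CEpiLC and 17.2 points between SOX2-ON and SOX2-OFF. Each was at the limit of p = 0.1 for an exact permutation of 3 and 3 libraries (adjusted p = 0.16 over 8 tests). With the share of all β-catenin sites subtracted they were 62.9 and 8.63 points (exact permutation tests, adjusted p = 0.2 and 0.267).

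At the length of the shortest TCF7L1 list, TCF7L1 peaks at naive-specific sites were mostly those of naive ESC. It occupied 450, 506 and 517 of the 900 sites in the naive ESC replicates, and 0.111%, 0.556% and 0.111% in CEpiLC, 0.556%, 3.67% and 2.44% in SOX2-ON and 1.44%, 0.778% and 1.11% in SOX2-OFF, in lists of 1628 peaks. Over all β-catenin sites its mean share was 12.8% in naive ESC and 10.0% to 12% in the other conditions. The mean at naive-specific sites was 54.6% ± 3.99 (SD, n = 3) in naive ESC and 2.22% ± 1.57 in SOX2-ON. High exceeded low SOX2 by 27.7 points (exact permutation test within cell lines, p = 0.02, adjusted p = 0.04). The difference of 54.3 points between naive ESC and CEpiLC was larger than that of 1.11 points between SOX2-ON and SOX2-OFF. The gap was 53.2 points (exact permutation of cell line labels within SOX2 levels, p = 0.005, adjusted p = 0.02 over 4 targets). Such a gap is favoured by the rule for a target lying with β-catenin, since SOX2-ON lists were among those in which sites had to be nearly absent.

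The length of 1628 was set by the first CEpiLC list of TCF7L1. Without that library, with 16482 peaks in each list (an alternative chosen after seeing the data), TCF7L1 was at 99.7%, 100% and 100% of naive-specific sites in naive ESC, 5.56% and 3.78% in CEpiLC, 3.44%, 55.4% and 56.8% in SOX2-ON and 7.11%, 16.7% and 20.9% in SOX2-OFF. The first SOX2-ON library stood apart at this length, also over all β-catenin sites (11.4% against 54.7% and 60.4%). High exceeded low SOX2 by 59.4 points (exact permutation test, adjusted p = 0.04). SOX2-ON exceeded SOX2-OFF by 23.7 points with that library and by 41.2 points without it (exact permutation tests, adjusted p = 0.457 and 0.133). In SOX2-ON the share thus changed with list length, reaching that of all β-catenin sites in 2 libraries, while in CEpiLC it stayed at or below 5.56% at both lengths, under the 23.9% and 25.3% of all sites.

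TCF7L2 occupied 9.56%, 41.4% and 18.2% of naive-specific sites in naive ESC and 0.333% to 1.22% in the 9 other libraries. Over all β-catenin sites the mean was 9.19% in naive ESC (6.58% in the first replicate), 10.6% in CEpiLC, and 7.26% and 8.07% in SOX2-ON and SOX2-OFF. The naive values at naive-specific sites varied but none overlapped the others. High exceeded low SOX2 by 11.4 points (exact permutation test within cell lines, p = 0.035, adjusted p = 0.0467), and SOX2-ON differed from SOX2-OFF by 0.222 points (exact permutation test, p = 0.7, adjusted p = 0.7). LEF1 occupied 0.222%, 67.9% and 16.3% in naive ESC, 2.44% to 3.11% in CEpiLC, 3.33% to 6.56% in SOX2-ON and 0.333% to 1.44% in SOX2-OFF. The first naive LEF1 library was at 1.03% of all β-catenin sites against 23.6% and 6.73% in the other two, and at 4.82% of kept sites. High exceeded low SOX2 by 14.6 points for LEF1, which did not pass (exact permutation test, adjusted p = 0.05). Without the first naive library, an alternative chosen after seeing the data, it was 21.6 points (exact permutation test, adjusted p = 0.01). SOX2-ON exceeded SOX2-OFF by 3.74 points for LEF1 (exact permutation test, p = 0.1, adjusted p = 0.16), and this difference was not above that of all β-catenin sites. Over all β-catenin sites, LEF1 was at 23.9% in CEpiLC and at 10.1% to 14.1% elsewhere. At naive-specific sites CEpiLC lay below its own background, which holds CEpiLC β-catenin peaks that the rule leaves out. This difference therefore cannot be read as a trait of LEF1.

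**Figure D2:**
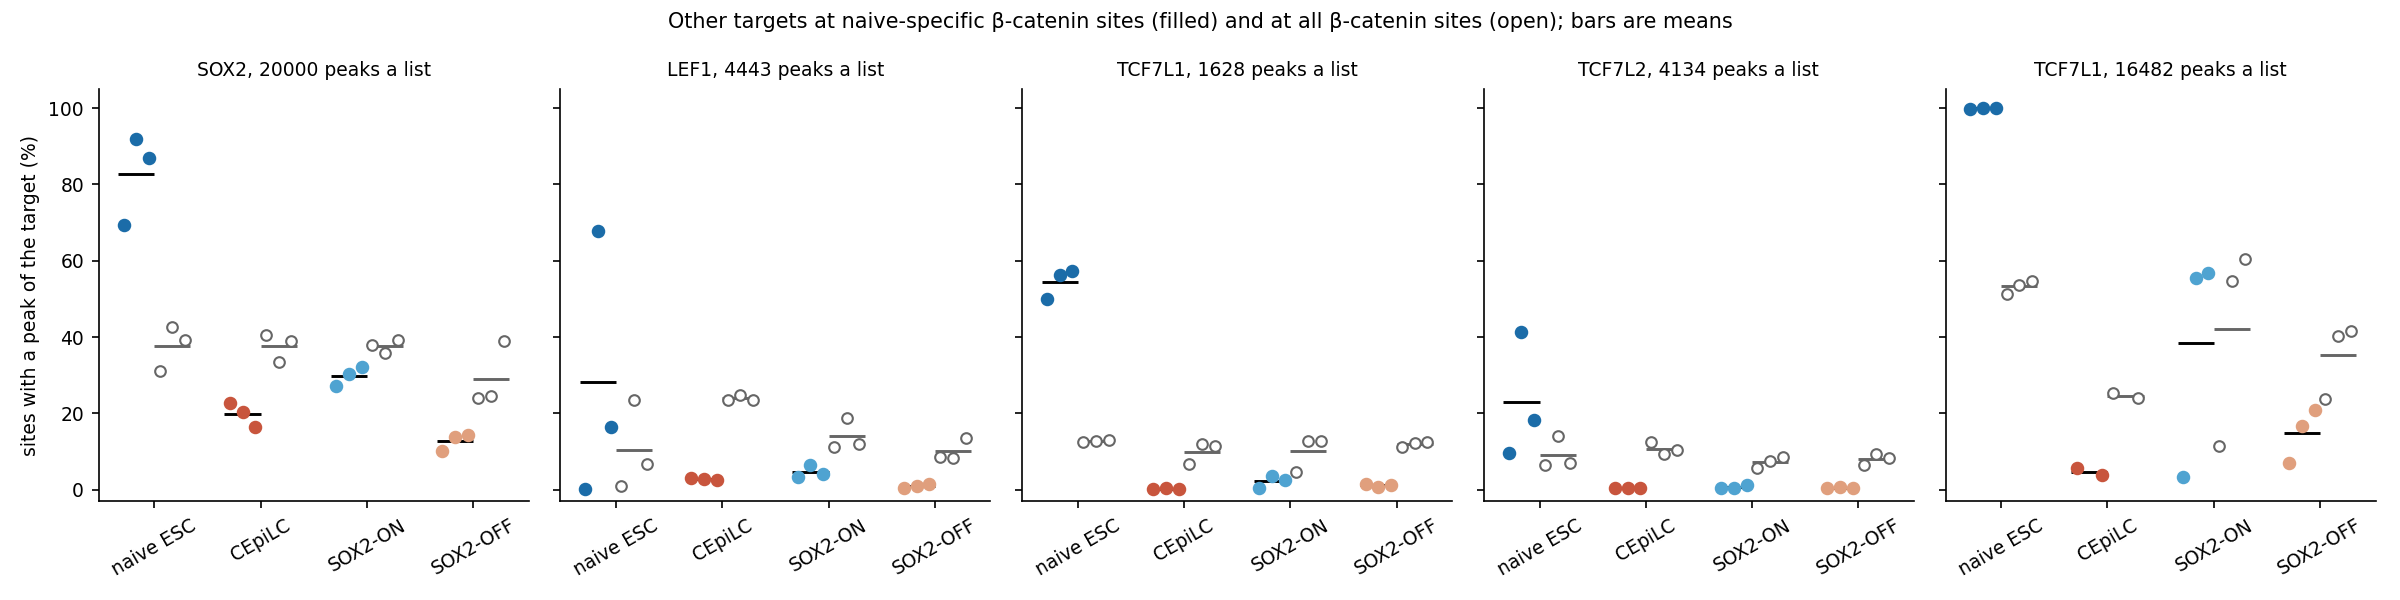
Percentage of sites with a peak of SOX2, LEF1, TCF7L1 or TCF7L2 in each library, in lists of equal length per panel, for the 900 naive-specific β-catenin sites (filled points) and all 12607 β-catenin sites (open points), with group means as bars. SOX2 in naive ESC reached 69.3% to 91.8% of naive-specific sites against 31.1% to 42.5% of all sites, and the right-hand panel shows TCF7L1 at 16482 peaks a list, without the first CEpiLC library.

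Counted site by site, more sites were called for naive ESC over CEpiLC than in reverse, though for LEF1 it was 2 against 1. SOX2 had peaks in 3 of 3 naive ESC and 0 of 3 CEpiLC lists at 340 of the 900 sites (37.8%), and over all β-catenin sites 7.95% were called by this rule. The reverse was found at 0 of the 900, against 7.08% of all sites. For TCF7L1 it was 359 of the 900 (39.9%) against 5.98%, with 0 in the reverse direction against 2.13%. For TCF7L2 it was 32 of the 900 (3.56%) against 1.05%, with 0 in reverse against 2.13%. For LEF1 it was 2 of the 900 against 0.0397%, and 1 in reverse against 8.72%. Without the first naive library, LEF1 was in 2 of 2 naive and 0 of 3 CEpiLC lists at 112 of the 900 sites (12.4%), against 2.03% of all sites. Without the first CEpiLC library and with 16482 peaks a list, the TCF7L1 count was 819, for which no share of all sites is given here.

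Between SOX2-ON and SOX2-OFF the shares called at naive-specific sites, with 3 replicates and equal lists, were near or below those of all sites. SOX2 was in 3 of 3 SOX2-ON and 0 of 3 SOX2-OFF lists at 83 of the 900 sites (9.22%), against 11.3% of all β-catenin sites. The counts were 1 for LEF1 against 2.72%, 0 for TCF7L1 against 1.12% and 0 for TCF7L2 against 0.452%. In the reverse direction they were 3 for SOX2 against 2.33%, 0 for LEF1 against 1.18%, 2 for TCF7L1 against 1.89% and 0 for TCF7L2 against 0.650%. The counts with SOX2-ON above SOX2-OFF depended on the replicates used, other than for TCF7L2, which stayed at 0 of the sites. With the first replicate of each group left out, which also redraws the sites (1234 in place of 900) and allows longer TCF7L1 lists, they were 325 for TCF7L1, 52 for LEF1 and 180 for SOX2. Without the second replicates (1318 sites) they were 3, 13 and 205, and without the third (1184 sites) 1, 19 and 169. Shares of all β-catenin sites in these settings are not given here, so these counts cannot be read against a background.

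In naive ESC the partners overlapped in part within lists cut to 1 length per target. The lengths were 20000 peaks for SOX2, 4443 for LEF1, 1628 for TCF7L1 and 4134 for TCF7L2. Sites counted here as without TCF7L1 lacked it at that length. With 16482 peaks a list it was at 99.7% to 100% of the 900 sites. With presence in at least 2 of 3 naive lists, 435 of the 900 sites had both SOX2 and TCF7L1, 347 had SOX2 without TCF7L1, 58 had TCF7L1 without SOX2 and 60 had neither. Over all β-catenin sites 10.7% had both, 27.3% SOX2 without TCF7L1, 1.71% TCF7L1 without SOX2 and 60.3% neither. None of the 4 other targets was present at 54 sites (6.00%, against 58.6% of all β-catenin sites), 1 at 345 (38.3%, against 27.6%), 2 at 334 (37.1%, against 7.80%), 3 at 134 (14.9%, against 4.05%) and all 4 at 33 (3.67%, against 1.92%). Summits coincided closely. The median distance from the β-catenin summit was 15 to 21 bp for TCF7L1 in the 3 naive libraries and 28 to 37 bp for SOX2. Between 88.4% and 93.3% of TCF7L1 summits lay within 50 bp. These came from the lists of 1628 and 20000 peaks, so the 2 targets cannot be compared in distance. In the full lists TCF7L1 had a peak at 100% of naive-specific sites in each of the 3 naive ESC libraries and SOX2 at 95.7% to 98.4%, while over all β-catenin sites these long lists reached 58.6% to 76.4% for TCF7L1 and 53.4% to 71.6% for SOX2.

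The sites were divided further by SOX2 in SOX2-ON cells. SOX2 had a peak in 0 of 3 SOX2-ON lists of equal length at 505 sites, in 1 at 139, in 2 at 99 and in 3 at 157. In the full SOX2-ON lists, β-catenin peaks were found at 51.9%, 31.1% and 63.4% of the 505 sites without SOX2 by replicate, and at 96.2%, 82.8% and 93.0% of the 157 sites with SOX2 in all 3. The share was higher in the last class than in the first in all 3 replicates. In SOX2-OFF the same 2 classes had β-catenin peaks at 43.2%, 1.58% and 31.7% and at 43.3%, 3.18% and 31.8%, which hardly differed. In CEpiLC they were 19.0%, 10.3% and 7.52% and 30.6%, 14.6% and 8.92%, again higher in the last class in all 3 replicates. TCF7L1 peaks in the full SOX2-ON lists were at 2.18%, 36.4% and 74.7% of the 505 sites and at 9.55%, 90.4% and 100% of the 157. The median naive β-catenin fold was 24.1 in the 505 and 23.4 in the 157. Sites and not libraries are the units here, so these shares are a description. Shares for the same classes over all β-catenin sites are not given here. The differences between classes therefore cannot be read as particular to naive-specific sites.

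**Figure D3:**
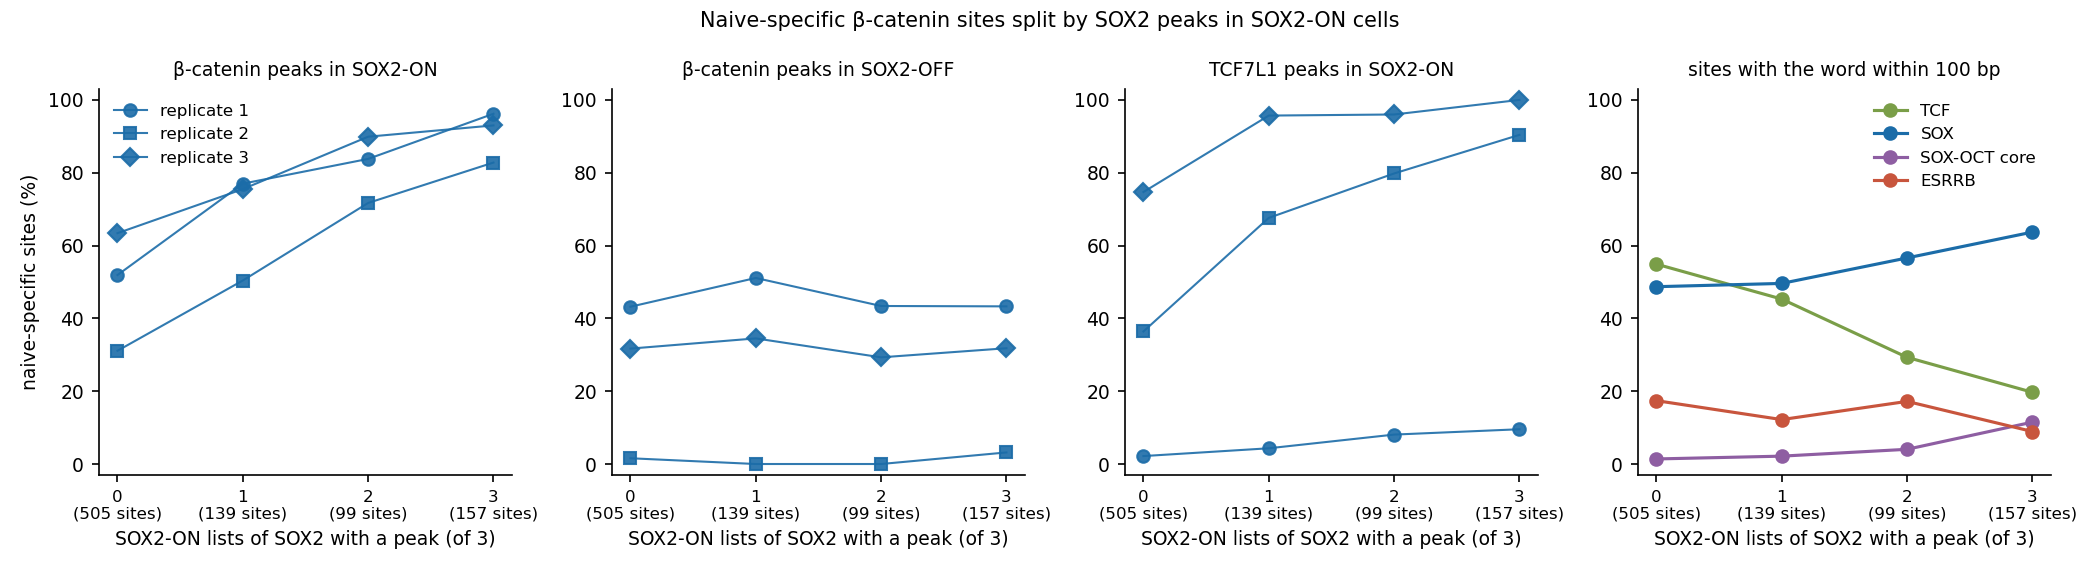
The 900 naive-specific sites split by the number of SOX2-ON libraries with a SOX2 peak (x axis, with the number of sites), and the percentage of each class with a β-catenin peak in SOX2-ON or SOX2-OFF, with a TCF7L1 peak in SOX2-ON (all deposited peaks, 1 line per replicate), or with a sequence word within 100 bp. β-catenin in SOX2-ON was at 51.9%, 31.1% and 63.4% of sites in the first class and at 96.2%, 82.8% and 93.0% in the last, and the TCF word at 54.9% and 19.7%.

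Sequence words were counted in the same classes. The TCF word was within 100 bp of the summit at 54.9% of the 505 sites without SOX2 in SOX2-ON and at 19.7% of the 157 with it, while the SOX word was at 48.7% and 63.7% and the core of the joint SOX-OCT word (TTGTNATGC) at 1.39% and 11.5%. The octamer (ATGCAAAT), bound by OCT4, was at 2.97% and 9.55%. The ESRRB word was at 17.4%, 12.2%, 17.2% and 8.92% of sites with SOX2 in 0, 1, 2 and 3 lists, without a steady fall. Shares of these words in the same classes over all β-catenin sites are not given here.

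Over all 900 sites the TCF word was present at 44.4%, much like the 43.8% of all β-catenin sites and below the 72.0% of the kept sites, and in windows 5000 bp away it was present at 7.44% to 9.11%. The SOX word was at 52.3% of naive-specific sites, 44.6% of all and of kept sites, 27.9% of CEpiLC-specific sites and 74.1% of the 421 sites found by the mirrored rule in SOX2-ON lists, and at 26.2% of windows 5000 bp away on either side. The ESRRB word was at 15.1%, against 6.06% of all sites, 4.17% of CEpiLC-specific and 2.41% of kept sites, with 4.67% to 4.78% in the distant windows. The KLF word (GGGTGTGG or GGGCGTGG) was at 7.56%, against 3.47% of all sites and 2.33% to 2.56% in the distant windows. The CDX word (TTTATTG or TTTATGG) was at 5.89%, near the 6.58% of all sites. It was at 12.3% of CEpiLC-specific sites and 8.0% of windows 5000 bp away on either side. The STAT word (TTCNNNGAA) was at 6.78%, against 7.42% of all sites, the octamer at 5.33% against 4.46%, the SOX-OCT core at 3.56% against 2.39% and the T word (GGTGTG), which the first KLF word contains, at 18.4% against 15.6%. The SOX-OCT core can overlap the SOX word CATTGT. Both strands were searched, and a match says only that the letters are present.

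**Figure D4:**
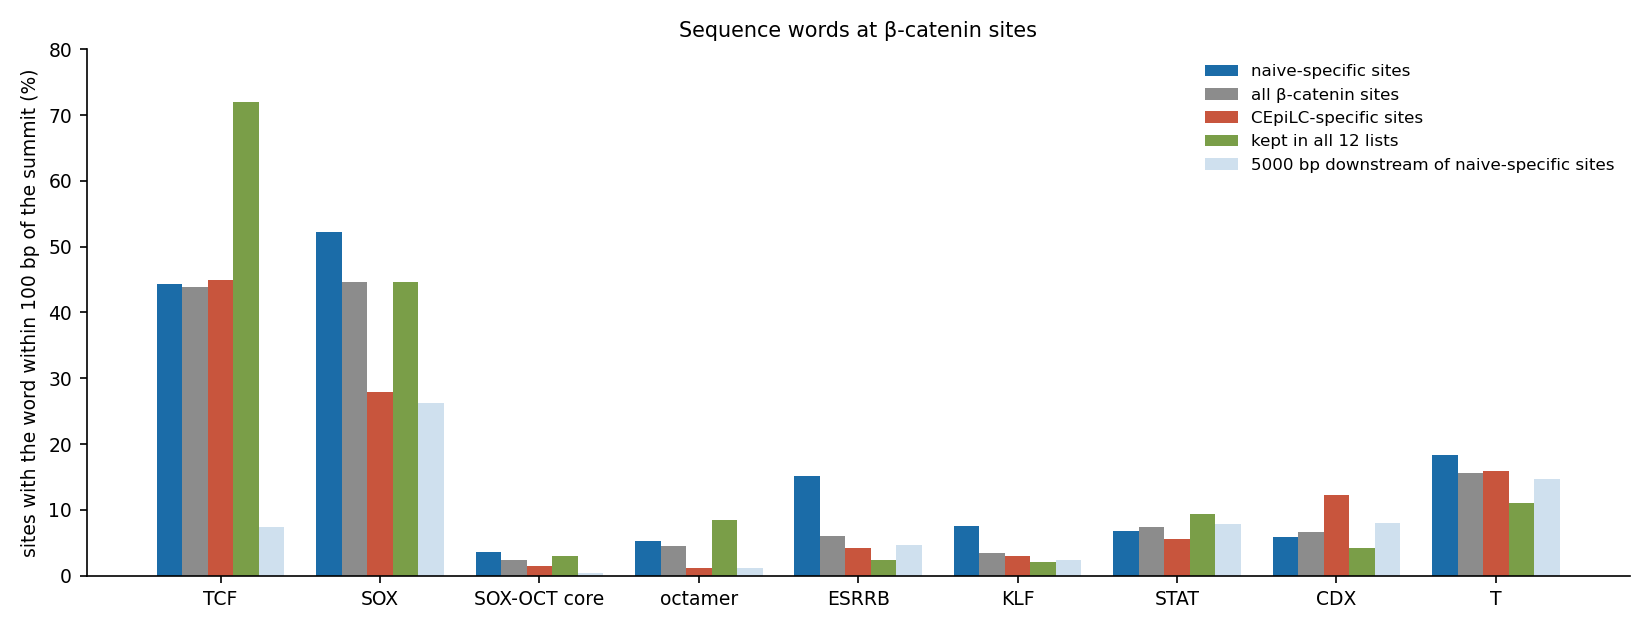
Percentage of sites with each sequence word within 100 bp of the β-catenin summit (y axis) for naive-specific, all, CEpiLC-specific and kept sites, and for windows 5000 bp downstream of naive-specific sites. The ESRRB word stood at 15.1% of naive-specific sites against 6.06% of all sites, while the TCF word was highest at kept sites, at 72.0%.

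Both TCF and SOX words were at 182 of the 900 sites (20.2%), the TCF word alone at 218, the SOX word alone at 289 and neither at 211. In lists of 1628 peaks, TCF7L1 was at 64.2%, 68.8% and 69.2% of sites with the TCF word by naive replicate. Without the word it was at 38.6%, 46.2% and 48.0%. Sites with the word had SOX2 peaks less often in lists of 20000 peaks, at 55.5%, 85.5% and 78.2% against 80.4%, 96.8% and 93.6%. With 16482 peaks a list TCF7L1 was at 99.7% to 100% of the 900 sites. Its difference by word is thus one of rank among TCF7L1 peaks. The same split over all β-catenin sites is not given here. The TCF and SOX words were most frequent close to the summit, while the ESRRB word was spread over about 75 bp to either side. The KLF word was at 0.667% in the central bin and in those at 25 and 75 bp, and at 1.44% and 1.56% at −25 and −75 bp. Within 100 bp it was at 7.56%, against 2.33% to 2.56% in windows 5000 bp away, so it was raised around the summit without a central peak. The TCF word was in the central 25 bp bin at 10.6% of naive-specific sites and in the bins 300 bp away at 1.11% and 1.33%. The ESRRB word was in the central bin at 2.67% of sites, in the adjoining bins at 1.11% and 1.33%, and in bins 75 bp away at 2.44% and 2.56%, against 0.778% and 0.889% at 300 bp. Of the summits, 22.7% lay in sequence masked as repeats, against 20.2% over all sites and 11.8% of CEpiLC-specific sites.

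**Figure D5:**
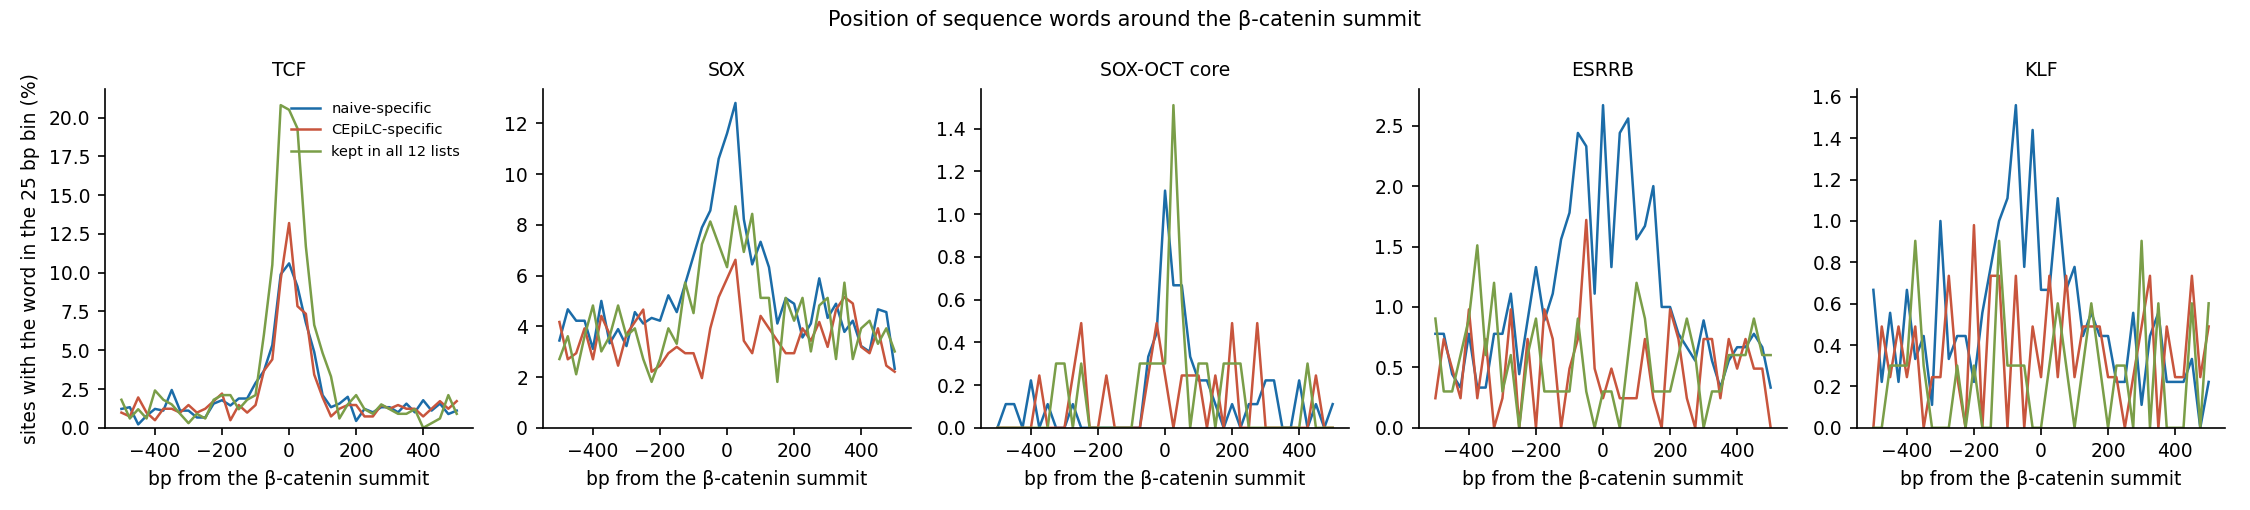
Percentage of sites with a sequence word centred in each 25 bp bin (y axis) by distance from the β-catenin summit in bp (x axis), for naive-specific, CEpiLC-specific and kept sites. At naive-specific sites the TCF and SOX words were highest near the summit, at 10.6% and 11.6% in the central bin, and the ESRRB word was at 2.67%.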

How the data were processed

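ChIP-seq libraries of 76 bp reads were processed by the authors with the nf-core ChIP-seq pipeline (BWA, mm10), and narrow peaks were called with MACS2 separately for each library. Which of the 4 input samples, which have no list here, served which library is not given in the sources used here. Per the file headers and values, each of the 60 deposited lists gave the fold enrichment (a ratio over local background), the −log10 p-value and the −log10 q-value at the summit. Only peaks were deposited, so read depth is unknown, no interval for counting error can be given, and list length stood in its place. Of 12175735 peaks, 0 exceeded the GRCm38 chromosome lengths, and every β-catenin site was on an assembled chromosome.

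Sites were built as stated in the report, from the 3423 peaks of highest fold per β-catenin list. The sites, gene lists and sequence words were chosen with earlier results of these data known. For the other targets, lists ranked by −log10 p were cut to 20000 peaks (SOX2), 4443 (LEF1), 1628 (TCF7L1) and 4134 (TCF7L2), and a site was occupied where a peak shared at least 1 bp with it. Shares of sites were compared over libraries with two-sided exact permutation tests, with labels permuted within cell lines for high against low SOX2 (400 assignments), and adjusted by the Benjamini-Hochberg method over 4 or 8 tests. Labels give biological replicates, without saying how they were separated, so p-values measure the spread between these samples. Values of β-catenin, which chose the sites, were not tested. Named were the 12 sites of highest median naive fold, sites within 50 kb of listed genes, and sites at the edge of the rule. Sequences came from GRCm38 and gene models from the basic GENCODE annotation. Words were sought within 100 bp of the median summit of the naive lists for naive-specific sites and of all lists with a peak for other sites. The code was tested on simulated lists with known answers (Python 3.11.15, pandas 2.3.3, numpy 2.4.6). Alternatives were other rankings, list lengths, overlap rules, windows and distances, a replicate block, and each replicate left out.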

Additional observations from a re-analysis of the deposited data

Results flagged for a closer look

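The difference in TCF7L1 between high and low SOX2 at naive-specific sites was not alike in the 2 cell lines. It was larger by 53.2 percentage points between naive ESC and CEpiLC (54.3 points) than between SOX2-ON and SOX2-OFF (1.11 points), as tested by permuting cell line labels within SOX2 levels (exact permutation test, p = 0.005, adjusted p = 0.02 over 4 targets). It was 71.6 points with 16482 peaks a list and without the first CEpiLC library (exact permutation test, adjusted p = 0.04), and 48.4 points after the share of all β-catenin sites was subtracted (exact permutation test, adjusted p = 0.08). It was 23.4 points with lists cut to 0.5 of their length (exact permutation test, adjusted p = 0.04) and 55.0 to 70.1 points with lists ranked by fold, all deposited peaks or those with −log10 q of at least 5. With 1 replicate left out it was 44.3 to 58.0 points (exact permutation test, adjusted p = 0.222 each, with too few libraries to pass). The main test gave 45.7 points for SOX2, 22.4 for TCF7L2 and 21.7 for LEF1 (exact permutation tests, adjusted p = 0.133, 0.1 and 0.4). After the share of all β-catenin sites was subtracted, it gave 54.3, 23.0 and 39.0 points (exact permutation tests, adjusted p = 0.0533, 0.02 and 0.02). With lists cut to 0.5 of their length TCF7L2 was at 12.7 points (exact permutation test, adjusted p = 0.04). A gap in this direction was thus not particular to TCF7L1. Medium and differentiation state changed along with SOX2 between naive ESC and CEpiLC and not between SOX2-ON and SOX2-OFF, so they cannot be told apart from the cell line. The choice of sites cannot be told apart from them either. It required β-catenin in naive ESC lists and in hardly any other limited list, those of SOX2-ON included. For a target lying with β-catenin this favours a larger difference between naive ESC and CEpiLC.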

How the results depend on the processing

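The number of naive-specific sites was 550 and 288 with the first 2000 and 1000 peaks a list, 5490 with all deposited peaks and 212 when absence was read in all deposited peaks, and 1184 to 1318 when 1 replicate was left out, where 2 of 2 naive lists sufficed. Of the 900 sites, 777 were found again when β-catenin peaks were ranked by −log10 p, 426 with the first 2000 peaks, 146 with the first 1000 and 208 with all deposited peaks.

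For high against low SOX2, leaving out 1 replicate gave 36.5 to 42.8 points for SOX2, 3.87 to 26 for LEF1, 23.3 to 65.5 for TCF7L1 and 6.75 to 13.5 for TCF7L2, with adjusted p from 0.0556 up, and 2 against 2 libraries in each line cannot go below 0.0556. Deviations of same-numbered replicates correlated at −0.0384 to 0.0425 between naive ESC and CEpiLC. Between SOX2-ON and SOX2-OFF the correlations were 0.0198 to 0.115, all of them positive. For no target were all values of a pair of conditions above the limit of 0.1 set for pairing, and the main tests were unpaired. Whether same-numbered libraries shared an experiment was not tested. With a replicate block the differences stayed 40.0 (SOX2), 27.7 (TCF7L1) and 11.4 points (TCF7L2), each with adjusted p = 0.0938 (exact sign-flip permutation), so none of these calls passed. With all deposited peaks TCF7L2 was at 25.4 points (exact permutation test, adjusted p = 0.065), and with −log10 q of at least 5 at 20.2 points (adjusted p = 0.05). LEF1 passed with lists cut to 0.5 of their length (10.7 points), with all deposited peaks (41.9), with −log10 q of at least 5 (33.4) and without the first naive library (21.6). For TCF7L1 it was 59.4 points without the first CEpiLC library and 68.2 also without the first SOX2-ON library. The LEF1 difference between SOX2-ON and SOX2-OFF turned to -0.164 points when all β-catenin sites were subtracted. The other settings tried kept direction and call for these differences.

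Counts of sites in 3 of 3 naive and 0 of 3 CEpiLC lists became 452 to 682 (SOX2), 3 to 229 (LEF1), 445 to 1112 (TCF7L1) and 46 to 137 (TCF7L2) with 1 replicate left out, which redraws the sites. For LEF1 the count was 1 when ranked by fold, 0 with such shorter lists, 72 with all peaks and 112 without the first naive library. For TCF7L1 it was 130 with such shorter lists, 575 with all peaks and 819 without the first CEpiLC library. For TCF7L2 it was 13 with such shorter lists and 91 with all peaks. The cause of these changes was not tested. Shares of all sites are not given for these settings, other than for LEF1 without the first naive library. The counts therefore cannot be read against a background.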
